A study of Mus musculus with 8 samples.

Results

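The lung lineage set holds 36 genes, chosen by symbol as markers of the alveolar and airway epithelium of the mouse, out of 23224 genes listed in an RNA sequencing study of lung adenocarcinoma cell lines. It is made of 4 surfactant proteins, 6 genes of surfactant lipid and the lamellar body, 6 other alveolar type 2 genes, 12 alveolar type 1 genes and 8 airway genes, and all 36 symbols were present. Of the 36 genes, 15 were silent in every group, 5 were at trace level, 13 were kept in every group and 3 crossed the limit in some groups only. Silent means 3 estimated counts or fewer in each of the 8 libraries, kept means a mean of at least 1 CPM (counts scaled to a common library total) in each group, and trace means above silent with every group's mean under 1 CPM. These classes were not counted over all genes, so their sizes show no loss particular to this set. Too few counts for testing were found in 9906 of all 23224 genes and in 19 of the 36.

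The libraries fall into 4 groups of 2. Tmet was derived from a metastatic primary tumour and has no shRNA named. The triple knockdown, shNkx2-1 and shControl groups are Tnonmet, from non-metastatic primary tumours, and carry virally delivered shRNAs against Nkx2-1, Foxa2 and Cdx2 together, against Nkx2-1 alone, or against luciferase as the control. The labels give every group the same genotype, which includes Trp53-/-, so the controls lack Trp53 too. All were grown as cultured lines in DMEM with 10% serum, and the labels do not say whether a line is a clone or whether the 2 libraries of a group came from separate cultures. The p-values therefore measure only the spread between these libraries, which may be technical.

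Alveolar type 2 cells make pulmonary surfactant, a film of lipid and surfactant proteins that is stored in lamellar bodies and secreted onto the alveolar surface, and they renew the flat alveolar type 1 cells through which gas is exchanged. Secretory club cells, ciliated cells and basal cells line the airways. Nkx2-1, Foxa1 and Foxa2 are transcription factors of the lung epithelium that are known to act on surfactant and secretoglobin genes, while Cdx2 is a factor of the intestinal epithelium.

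The targeted genes were read first. Nkx2-1 had 0.219 and 0.353 CPM in Tmet, 38.1 and 34.0 CPM in the triple knockdown, 37.7 and 44.8 CPM in shNkx2-1, and 76.4 and 68.0 CPM in shControl, so the transcript was lower but still present in both knockdown groups. Foxa2 had 1.20 and 1.36 CPM in Tmet, 34.1 and 28.2 CPM in the triple knockdown, 49.2 and 41.6 CPM in shNkx2-1, and 56.8 and 55.1 CPM in shControl. Cdx2 had 0.383 and 0.353 CPM in Tmet, 9.41 and 6.80 CPM in the triple knockdown, 175 and 186 CPM in shNkx2-1, and 98.6 and 111 CPM in shControl. Totals ran between 14496995 and 21044835 estimated counts per library, which puts 3 counts at 0.151 to 0.200 CPM. Libraries of a group correlated across genes with r = 0.977 in Tmet, 0.994 in the triple knockdown, 0.994 in shNkx2-1 and 0.995 in shControl, and each pair differed by more than sampling noise (chi-square per gene 8.36 to 60.0).

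**Figure D1:**
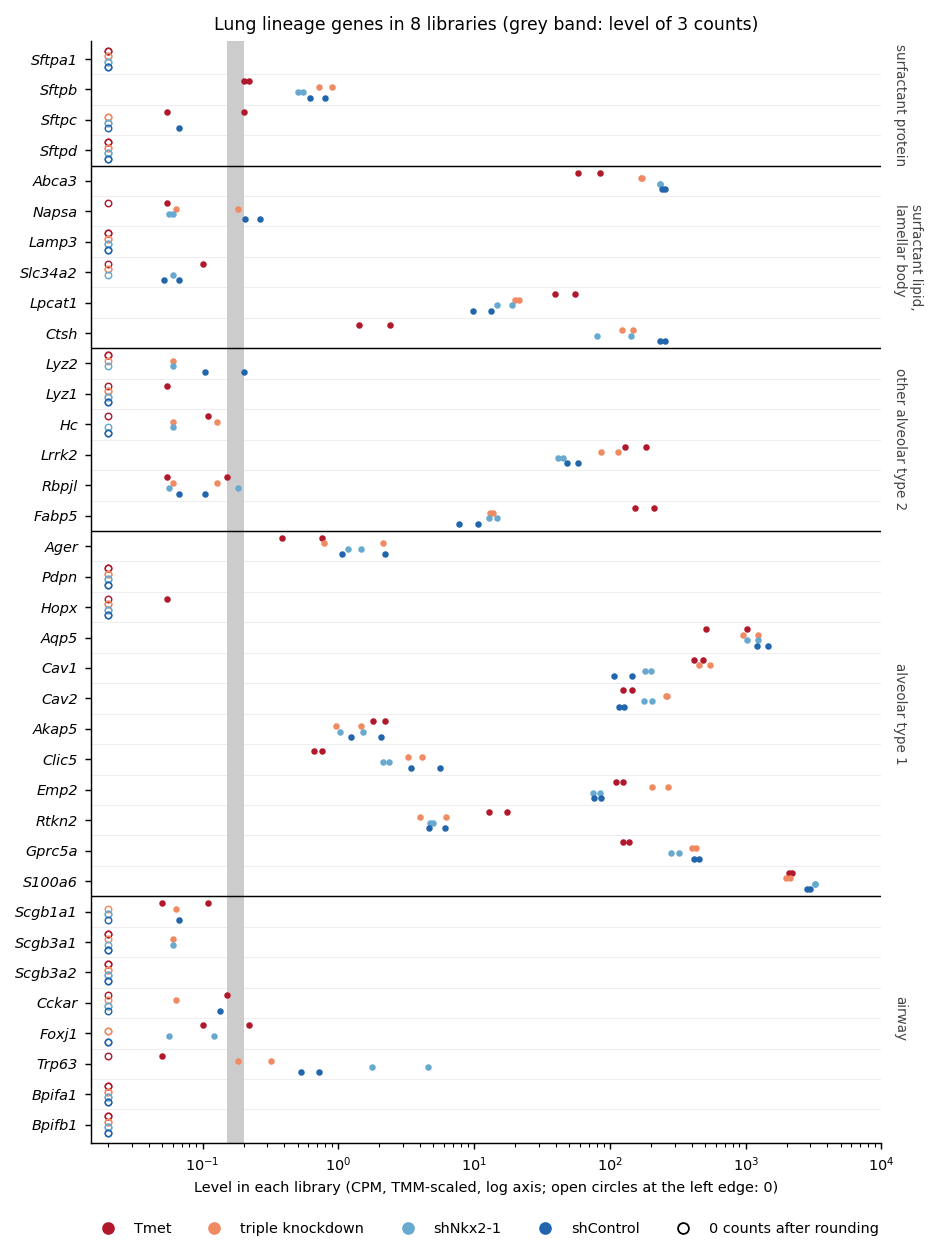
Level of each of the 36 lung lineage genes in each of the 8 libraries, in CPM on a log axis, grouped by role, with 1 point per library coloured by group and open circles at the left edge for libraries with 0 counts after rounding. The grey band is the level of 3 counts, and 15 of the 36 genes had no library above 3 counts.

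None of the 4 surfactant proteins reached 1 CPM in any group. The collectins Sftpa1 and Sftpd, which bind sugars on microbes, had 0 estimated counts in every library, which allows at most the level of 3 counts in each. Sftpc, the hydrophobic protein that is the classical mark of a type 2 cell, had 1 and 4 counts in Tmet, 0 in both triple knockdown libraries, 0 in both shNkx2-1 libraries, and 1 and 0 in shControl. Sftpc was thus at the edge of detection, and its highest count was in Tmet.

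Sftpb, the hydrophobic protein that spreads surfactant lipid, was the surfactant protein with counts in every library. It had 0.219 and 0.202 CPM in Tmet, 0.724 and 0.897 CPM in the triple knockdown, 0.547 and 0.507 CPM in shNkx2-1, and 0.800 and 0.619 CPM in shControl, from at most 13.99 counts. Both Tmet libraries lay under all 6 Tnonmet libraries, and the triple knockdown overlapped shControl. By edgeR's quasi-likelihood test Sftpb was lower in Tmet than in the triple knockdown (log2 -1.91 ± 0.47 SE, adjusted p = 0.0111) and lower than in shControl (-1.71 ± 0.47, adjusted p = 0.0152). It passed the filter on low counts only through the triple knockdown and shControl. Against shControl the call was lost with DESeq2 and without either shControl library or Tmet replicate 2 (adjusted p up to 0.111), and against the triple knockdown it was lost with DESeq2 and without triple knockdown replicate 2 (up to 0.0855). In these bulk libraries, fewer cells that express a gene and less of its RNA per cell cannot be told apart.

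The start regions of Sftpa1, which had no count, and Sftpb, which had a trace, are shown because both genes are textbook targets of Nkx2-1. Each runs from 250 bases before to 50 bases from the annotated start, 5′ to 3′ on the gene's strand, from RefSeq on GRCm38.p6, a later build than the mm9 of the submitters' notes. Sftpa1 is at chr14:41131538-41131837 (+ strand) and Sftpb at chr6:72304360-72304659 (+ strand). Capitals mark matches on either strand to CTCAAG (an Nkx2-1 core), to CAAGTG (an NK2-class homeodomain core) and to TGTTTNC (a forkhead core).
Sftpa1: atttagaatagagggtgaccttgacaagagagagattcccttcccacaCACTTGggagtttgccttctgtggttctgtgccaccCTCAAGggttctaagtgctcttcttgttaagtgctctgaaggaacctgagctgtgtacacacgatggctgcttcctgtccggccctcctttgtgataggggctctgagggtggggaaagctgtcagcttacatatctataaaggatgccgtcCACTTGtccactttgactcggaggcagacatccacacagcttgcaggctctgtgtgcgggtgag
Sftpb: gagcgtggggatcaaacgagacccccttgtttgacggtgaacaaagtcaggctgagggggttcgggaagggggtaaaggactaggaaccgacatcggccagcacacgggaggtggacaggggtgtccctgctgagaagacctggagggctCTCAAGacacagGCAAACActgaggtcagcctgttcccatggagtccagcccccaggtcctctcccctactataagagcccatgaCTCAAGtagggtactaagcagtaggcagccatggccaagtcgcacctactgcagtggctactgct
Sftpa1 holds CTCAAG 166 bases before the start and CAAGTG on the opposite strand at 202 and 14 bases before it. Sftpb holds CTCAAG at 100 and 15 bases before the start and TGTTTNC on the opposite strand at 88 bases before it. Such short motifs are common: CTCAAG is in 15.9% of 32851 windows of this length, CAAGTG in 13.6% and TGTTTNC in 20.5%. The table held 27 windows for 24 of the 36 genes, and 6 of these windows held CTCAAG, 7 held CAAGTG and 7 held TGTTTNC. The matches to CTCAAG and to CAAGTG overlap in 1 window each of Hopx and Scgb3a1. A match describes letters only and says nothing of binding.

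Genes of surfactant lipid and the lamellar body split between silent and kept. Lamp3, a membrane protein of lamellar bodies, had 0 counts in every library, and Slc34a2, the phosphate transporter of type 2 cells, had at most 2 counts. Napsa, an aspartic protease that processes the Sftpb precursor, stayed at trace level, with 1 and 0 counts in Tmet, 3.11 and 1.04 in the triple knockdown, 1.09 and 1.00 in shNkx2-1, and 4.11 and 4.01 in shControl. The ratio of Napsa in shControl over Tmet was 8.88 (95% exact counting interval 1.19 to 394), which covers counting error only. Abca3, Lpcat1 and Ctsh were kept in every group.

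Abca3, the lipid pump of the lamellar body membrane, had 84.4 and 58.3 CPM in Tmet, 169 and 171 CPM in the triple knockdown, 233 and 235 CPM in shNkx2-1, and 256 and 243 CPM in shControl. The 4 groups did not overlap one another in this gene. Abca3 was lower in Tmet than in shControl (log2 -1.81 ± 0.17, adjusted p = 6.13e-05) and than in the triple knockdown (-1.25 ± 0.16, adjusted p = 0.000571). It was also lower in the triple knockdown than in shControl (-0.55 ± 0.16, adjusted p = 0.0397), a call lost when any 1 of the 6 Tnonmet libraries was left out (adjusted p up to 0.205). In shNkx2-1 against shControl it did not pass (-0.09 ± 0.16, adjusted p = 0.829). The RefSeq annotation places Abca17 over the Abca3 locus, and Abca17 had 0 counts in all 8 libraries.

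Ctsh, the protease cathepsin H that takes part in maturing surfactant proteins, fell farthest in the whole set. It had 2.41 and 1.41 CPM in Tmet, 122 and 148 CPM in the triple knockdown, 80.9 and 143 CPM in shNkx2-1, and 233 and 254 CPM in shControl. Both Tmet libraries were far under all others, and both knockdown groups lay between Tmet and shControl without overlap with either. Ctsh was 128-fold lower in Tmet than in shControl (log2 -7.00 ± 0.37, adjusted p = 3.37e-06) and 71.0-fold lower than in the triple knockdown (-6.15 ± 0.36, adjusted p = 8.02e-06). The knockdown groups did not pass against shControl, with log2 changes of -0.85 ± 0.26 for the triple knockdown (adjusted p = 0.0505) and -1.12 ± 0.27 for shNkx2-1 (adjusted p = 0.0651), and several other fits, DESeq2 and limma-voom among them, put both past the threshold.

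Lpcat1, the enzyme that makes the main surfactant phospholipid, moved the other way. It had 39.5 and 55.7 CPM in Tmet, 21.5 and 19.9 CPM in the triple knockdown, 19.1 and 14.6 CPM in shNkx2-1, and 9.80 and 13.4 CPM in shControl, and the groups did not overlap. Lpcat1 was higher in Tmet than in shControl (log2 2.03 ± 0.24, adjusted p = 0.000218) and than in the triple knockdown (1.20 ± 0.23, adjusted p = 0.00354). Its rise in the triple knockdown against shControl (0.83 ± 0.23, adjusted p = 0.0364) was lost with limma-voom and without any 1 of the 4 libraries compared (adjusted p up to 0.230). The 3 kept genes of this role therefore did not share a direction in Tmet, where Abca3 and Ctsh were lower and Lpcat1 higher.

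The start region of Abca3 (chr17:24351773-24352072, + strand, GRCm38.p6) is shown as the kept surfactant gene, and none of the 3 motifs is in this window.
Abca3: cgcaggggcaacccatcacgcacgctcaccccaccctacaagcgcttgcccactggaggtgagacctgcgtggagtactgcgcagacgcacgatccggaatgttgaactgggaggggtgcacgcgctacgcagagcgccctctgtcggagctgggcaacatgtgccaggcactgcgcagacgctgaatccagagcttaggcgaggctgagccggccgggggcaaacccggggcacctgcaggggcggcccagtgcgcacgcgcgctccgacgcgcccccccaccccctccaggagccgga

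Of the other 6 type 2 genes, 3 were silent, 1 was at trace level and 2 were kept. Lyz1 and Lyz2, neighbouring and near-identical lysozyme genes between which reads may be divided, had at most 1 and 3 counts. Hc, which encodes complement C5, had at most 2 counts. Rbpjl, a relative of the Notch effector Rbpj, had at most 3.05 counts, just past the silent limit that Lyz2 met. Matn4, which overlaps Rbpjl in the annotation, had at most 1 count.

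Fabp5, a cytosolic carrier of fatty acids, had the largest rise among the 36 genes. It had 154 and 212 CPM in Tmet, 13.8 and 13.1 CPM in the triple knockdown, 14.6 and 12.9 CPM in shNkx2-1, and 7.74 and 10.6 CPM in shControl. All 6 Tnonmet libraries were under 15 CPM and both Tmet libraries over 150. The rise in Tmet was 19.8-fold against shControl (log2 4.31 ± 0.22, adjusted p = 3.14e-06) and 13.6-fold against the triple knockdown (3.77 ± 0.22, adjusted p = 7.07e-06). Neither the triple knockdown (0.54 ± 0.21, adjusted p = 0.105) nor shNkx2-1 (0.58 ± 0.21, adjusted p = 0.193) passed against shControl. The triple knockdown did pass in the fit of the compared libraries alone and without both Tmet libraries.

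Lrrk2, a large kinase that is abundant in type 2 cells and acts on their lamellar bodies, had 185 and 130 CPM in Tmet, 86.4 and 114 CPM in the triple knockdown, 41.3 and 44.8 CPM in shNkx2-1, and 48.1 and 57.7 CPM in shControl. Tmet and the triple knockdown were both above the other 2 groups. Lrrk2 rose in Tmet against shControl (log2 1.57 ± 0.21, adjusted p = 0.000428) and in the triple knockdown against shNkx2-1 (1.22 ± 0.21, adjusted p = 0.00559) and against shControl (0.92 ± 0.21, adjusted p = 0.0145). The last call was lost without either shControl library or triple knockdown replicate 2 (adjusted p up to 0.131). Tmet was also above the triple knockdown (0.65 ± 0.20, adjusted p = 0.0299), but this was lost in the fit of the compared libraries alone and when either shControl library, either shNkx2-1 library, triple knockdown replicate 1 or Tmet replicate 1 was left out (adjusted p up to 0.192), and without Tmet replicate 1 the difference was 0.37.

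Alveolar type 1 genes were the best represented role: 8 of 12 were kept in every group, against 5 of the 12 type 2 genes beyond the surfactant proteins and 0 of 8 airway genes. Pdpn, the membrane glycoprotein podoplanin, and Hopx, the homeodomain-only cofactor, both widely used marks of type 1 cells, were silent, with 0.09 and 1 counts at most. Ager, the receptor for advanced glycation end products and a defining type 1 gene, was close to 1 CPM, with 0.383 and 0.756 CPM in Tmet, 0.784 and 2.12 CPM in the triple knockdown, 1.46 and 1.18 CPM in shNkx2-1, and 1.07 and 2.22 CPM in shControl. Ager passed in no comparison. Its adjusted p in Tmet against shControl was 0.0642, and it passed with no filter on low counts and without Tmet replicate 2 (adjusted p down to 0.0449). The kept genes of this role are membrane, water channel, calcium-binding and signalling proteins, many of which are also made outside the lung.

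S100a6, a small calcium-binding protein made by many cell types, and Aqp5, the apical water channel of type 1 cells, were the most abundant. Per kilobase of merged exon, S100a6 stood at 2644 CPM in Tmet, 2550 in the triple knockdown, 4010 in shNkx2-1 and 3586 in shControl, and Aqp5 at 424 CPM in Tmet, 611 in the triple knockdown, 627 in shNkx2-1 and 749 in shControl. On that scale the next gene was Fabp5 in Tmet, at 186 CPM, and Gprc5a in each Tnonmet group, at 200 CPM in the triple knockdown, 146 in shNkx2-1 and 208 in shControl. S100a6 had 2095 and 2183 CPM in Tmet, 1989 and 2137 CPM in the triple knockdown, 3228 and 3260 CPM in shNkx2-1, and 2813 and 2988 CPM in shControl. Tmet and the triple knockdown lay under the other 2 groups. The differences were small, with log2 -0.44 ± 0.10 for Tmet against shControl (adjusted p = 0.00618), -0.49 ± 0.10 for the triple knockdown against shControl (adjusted p = 0.00979), and -0.65 ± 0.10 for the triple knockdown against shNkx2-1 (adjusted p = 0.00371). The call for the triple knockdown against shControl was lost without shControl replicate 2 or either triple knockdown library (adjusted p up to 0.102), and that for Tmet was lost in the fit of the compared libraries alone (0.0505).

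Aqp5 had 506 and 1018 CPM in Tmet, 1234 and 963 CPM in the triple knockdown, 1230 and 1022 CPM in shNkx2-1, and 1471 and 1221 CPM in shControl. The 2 Tmet libraries differed from each other more than the means of the Tnonmet groups did. The lower level in Tmet than in shControl (log2 -0.82 ± 0.30, adjusted p = 0.0447) rested on Tmet replicate 1: without it the difference was -0.41 and did not pass, and without Tmet replicate 2 it was -1.41. The call was also lost without any 1 of the other libraries and in the fit of the compared libraries alone (adjusted p up to 0.167).

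The caveolins and Emp2, membrane proteins of the thin type 1 cell, were the clearest risers in the triple knockdown. Cav1, the coat protein of caveolae, had 483 and 419 CPM in Tmet, 452 and 544 CPM in the triple knockdown, 199 and 180 CPM in shNkx2-1, and 108 and 145 CPM in shControl. Tmet and the triple knockdown overlapped and were both far above the other groups. Against shControl, Cav1 was 3.57-fold higher in Tmet (log2 1.83 ± 0.17, adjusted p = 6.76e-05) and 3.94-fold higher in the triple knockdown (1.98 ± 0.17, with an adjusted p of 0.000235), and 2.63-fold higher in the triple knockdown than in shNkx2-1 (1.39 ± 0.17, adjusted p = 0.00135). Tmet against the triple knockdown gave -0.14 ± 0.17 (adjusted p = 0.504). In shNkx2-1 against shControl Cav1 gave 0.59 ± 0.17 and did not pass (adjusted p = 0.107). It did pass there with DESeq2, in the fit of the compared libraries alone and without both Tmet libraries. These comparisons share libraries, so they are not separate evidence.

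Cav2, its partner from the neighbouring gene, had 146 and 124 CPM in Tmet, 259 and 265 CPM in the triple knockdown, 203 and 179 CPM in shNkx2-1, and 117 and 128 CPM in shControl. Unlike Cav1, its Tmet libraries overlapped those of shControl. Cav2 rose in the triple knockdown against shControl (log2 1.10 ± 0.12, adjusted p = 0.000701) and against shNkx2-1 (0.46 ± 0.12, adjusted p = 0.0316), and also in shNkx2-1 against shControl (0.64 ± 0.12, adjusted p = 0.0335). Tmet was under the triple knockdown (-0.96 ± 0.12, adjusted p = 0.000480), and against shControl it gave 0.14 ± 0.12 (adjusted p = 0.359). Both calls that involve shNkx2-1 were lost when any 1 of the 6 Tnonmet libraries was left out, with adjusted p up to 0.314 against shControl and up to 0.232 for the triple knockdown against shNkx2-1. Neither caveolin was tested for a difference in its change from the other.

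The start regions of the caveolins are shown because these neighbours on chromosome 6 both rose in the triple knockdown. Cav2 is at chr6:17280935-17281234 and Cav1, in the first of its 2 annotated windows, at chr6:17306085-17306384, both on the + strand of GRCm38.p6 and with capitals for the same 3 motifs.
Cav2: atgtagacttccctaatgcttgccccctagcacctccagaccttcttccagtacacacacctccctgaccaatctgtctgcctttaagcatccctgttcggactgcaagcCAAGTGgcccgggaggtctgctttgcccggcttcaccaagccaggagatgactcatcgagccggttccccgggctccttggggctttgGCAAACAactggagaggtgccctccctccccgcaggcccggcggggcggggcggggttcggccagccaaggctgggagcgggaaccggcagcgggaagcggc
Cav1: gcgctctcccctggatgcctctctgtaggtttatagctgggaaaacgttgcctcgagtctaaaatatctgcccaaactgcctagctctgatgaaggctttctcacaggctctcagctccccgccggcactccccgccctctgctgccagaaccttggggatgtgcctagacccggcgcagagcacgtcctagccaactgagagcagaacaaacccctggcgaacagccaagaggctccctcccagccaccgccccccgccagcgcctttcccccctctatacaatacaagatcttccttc
Cav2 holds CAAGTG 140 bases before the start and TGTTTNC on the opposite strand 52 bases before it, and the Cav1 window holds none of the 3.

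Emp2, a tetraspan membrane protein, had 125 and 111 CPM in Tmet, 204 and 270 CPM in the triple knockdown, 75.4 and 84.2 CPM in shNkx2-1, and 76.2 and 86.2 CPM in shControl. shNkx2-1 and shControl overlapped, Tmet was above both and the triple knockdown above all. Emp2 was 2.92-fold higher in the triple knockdown than in shControl (log2 1.54 ± 0.16, adjusted p = 0.000482) and 2.97-fold higher than in shNkx2-1 (1.57 ± 0.16, adjusted p = 0.000550). Tmet was lower than the triple knockdown (-1.01 ± 0.16, adjusted p = 0.00130). It was 1.45-fold higher than shControl (0.53 ± 0.16, adjusted p = 0.0189), which was lost without either shControl library (adjusted p up to 0.139).

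Gprc5a, an orphan receptor induced by retinoic acid, had 125 and 137 CPM in Tmet, 403 and 430 CPM in the triple knockdown, 325 and 283 CPM in shNkx2-1, and 415 and 452 CPM in shControl. Tmet lay far under the rest and shNkx2-1 somewhat under the other Tnonmet groups. Gprc5a was 3.30-fold lower in Tmet than in shControl (log2 -1.72 ± 0.12, adjusted p = 1.23e-05) and 3.17-fold lower than in the triple knockdown (-1.66 ± 0.12, adjusted p = 2.15e-05). In shNkx2-1 against shControl it gave -0.51 ± 0.11 (adjusted p = 0.0518), and 8 of 16 other settings, DESeq2 and limma-voom among them, called it lower (adjusted p from 0.00349 to 0.283 over the 16). The triple knockdown was above shNkx2-1 (0.46 ± 0.11, adjusted p = 0.0255), a call lost without either shControl library, either triple knockdown library or shNkx2-1 replicate 2 (adjusted p up to 0.180).

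Of the remaining 3 type 1 genes, Clic5 was lower and Rtkn2 higher in Tmet. Clic5, an intracellular chloride channel, had 0.656 and 0.756 CPM in Tmet, 3.26 and 4.10 CPM in the triple knockdown, 2.13 and 2.37 CPM in shNkx2-1, and 3.40 and 5.63 CPM in shControl, with Tmet under all others (log2 -2.67 ± 0.37 against shControl, adjusted p = 0.000515, and -2.37 ± 0.37 against the triple knockdown, adjusted p = 0.00138). Rtkn2 had 17.3 and 12.9 CPM in Tmet, 3.98 and 6.15 CPM in the triple knockdown, 4.98 and 4.73 CPM in shNkx2-1, and 4.67 and 6.14 CPM in shControl. Rtkn2 rose in Tmet, by 1.47 ± 0.28 against shControl (adjusted p = 0.00245) and 1.57 ± 0.28 against the triple knockdown (adjusted p = 0.00255), and the 3 Tnonmet groups overlapped. Akap5, an anchor of protein kinase A, had 1.80 and 2.22 CPM in Tmet, 0.965 and 1.47 CPM in the triple knockdown, 1.03 and 1.52 CPM in shNkx2-1, and 2.07 and 1.24 CPM in shControl, and passed in no comparison. Akap5 was the kept gene nearest to the limit, with a lowest group mean of 1.22 CPM, and Clic5, with a mean of 0.706 CPM in Tmet, missed it.

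**Figure D2:**
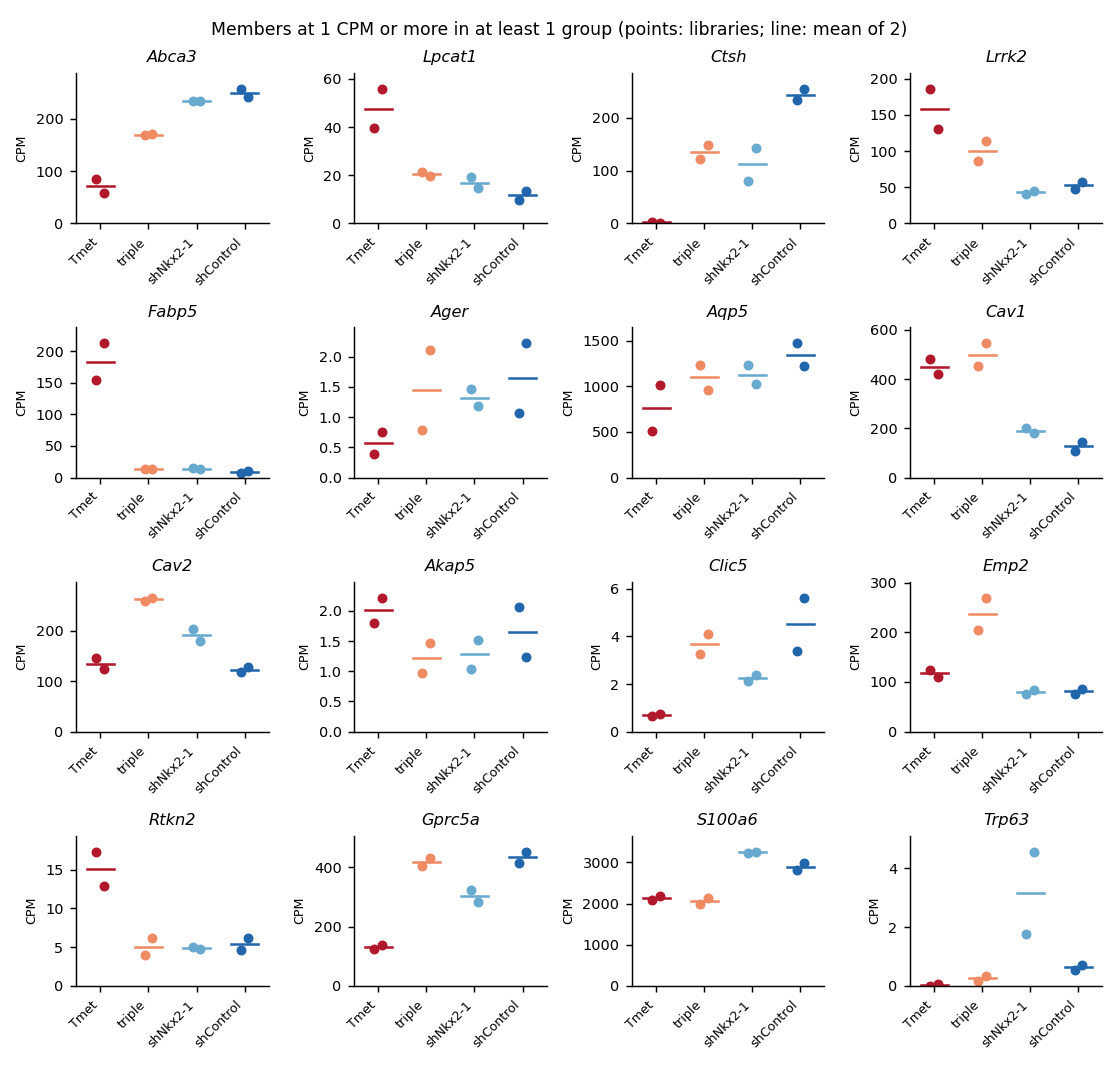
Level in CPM (linear axis from 0) of the 16 genes that reached 1 CPM in at least 1 group, with 1 point per library and a line at the mean of the 2 libraries. Ctsh, Abca3 and Gprc5a are lowest in Tmet, Fabp5, Lpcat1 and Rtkn2 are highest there, and Emp2 and Cav2 are highest in the triple knockdown.

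The airway genes were the emptiest role, with 6 of 8 silent and 0 kept. Scgb3a2, Bpifa1 and Bpifb1, secreted products of airway epithelium, had 0 counts in every library. Scgb1a1, the secretoglobin that marks club cells, had at most 2 counts, its relative Scgb3a1 at most 1, and Cckar, a receptor for cholecystokinin, at most 2.72. Foxj1, the master factor of motile cilia, was at trace level with 4 and 2 counts in Tmet, 0 in both triple knockdown libraries, 2 and 1 counts in shNkx2-1, and 0 in both shControl libraries.

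Trp63, the p63 factor of basal cells, was the airway gene with a measurable level, and this level was in shNkx2-1. It had 0 and 1 counts in Tmet, 3 and 5 in the triple knockdown, 29 and 81 in shNkx2-1, and 8 and 14 in shControl. Both shNkx2-1 libraries were above all others, with 1.76 and 4.56 CPM against at most 0.723 CPM in shControl. Trp63 was lower in the triple knockdown than in shNkx2-1 (log2 -3.63 ± 0.66, adjusted p = 0.00734), but this was lost without shNkx2-1 replicate 2 or either triple knockdown library (adjusted p up to 0.0797). In shNkx2-1 against shControl it gave 2.31 ± 0.58 (adjusted p = 0.0754). That difference passed with no filter on low counts, in the fit of the compared libraries alone and without both Tmet libraries. Tmet was called lower than shControl (adjusted p = 0.00961), with 24.4 times as much in shControl as in Tmet (95% exact counting interval 3.95 to 1007). Trp63 passed the filter on low counts only through shNkx2-1.

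Of the 36 genes, 17 had enough counts to be tested, and the other 19 were the 15 silent genes and Sftpc, Napsa, Rbpjl and Foxj1. Of these 17, 14 had counts past the filter in every group, and Sftpb, Ager and Trp63 passed it only through some groups. In Tmet against shControl 14 passed, 6 higher and 8 lower, where 57.3% of all 13318 genes tested passed (29.2% higher, 28.1% lower), and the median log2 change was -0.44 over the 17 and 0.02 over all genes. Over the 14 genes past the filter in every group, 6 were higher and 6 lower, with a median of 0.22, so the sign of the median depends on the low genes. In Tmet against the triple knockdown 11 passed, 4 higher and 7 lower, where 48.1% of all genes passed (24.0% higher, 24.1% lower), with a median of -0.96 over the 17 and 0.02 over all genes. Over the 14, 4 were higher and 6 lower, with a median of -0.34. In the triple knockdown against shControl 7 passed, 5 higher and 2 lower, with 24.4% of all genes (12.0% higher, 12.4% lower), and the median was -0.10 over the 17 and 0.0036 over all genes. In the triple knockdown against shNkx2-1 7 passed, 5 higher and 2 lower, with 20.4% of all genes (9.27% higher, 11.1% lower), and the median was 0.27 over the 17 and -0.0029 over all genes. In shNkx2-1 against shControl Cav2 alone passed, as a rise, with 3.55% of all genes (2.17% higher, 1.38% lower), and 7 of the 17 had an unadjusted p under 0.05. The median there was -0.16 over the 17 and 0.0044 over all genes. The number called in that comparison depended on the fit: without both Tmet libraries 5 members passed, among 2006 genes in all. The members that passed are those with enough counts, so these shares are no measure of the whole set. Lrrk2, Cav2 and Emp2 passed in 4 of the 5 comparisons, and neither Ager nor Akap5 passed in any.

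**Figure D3:**
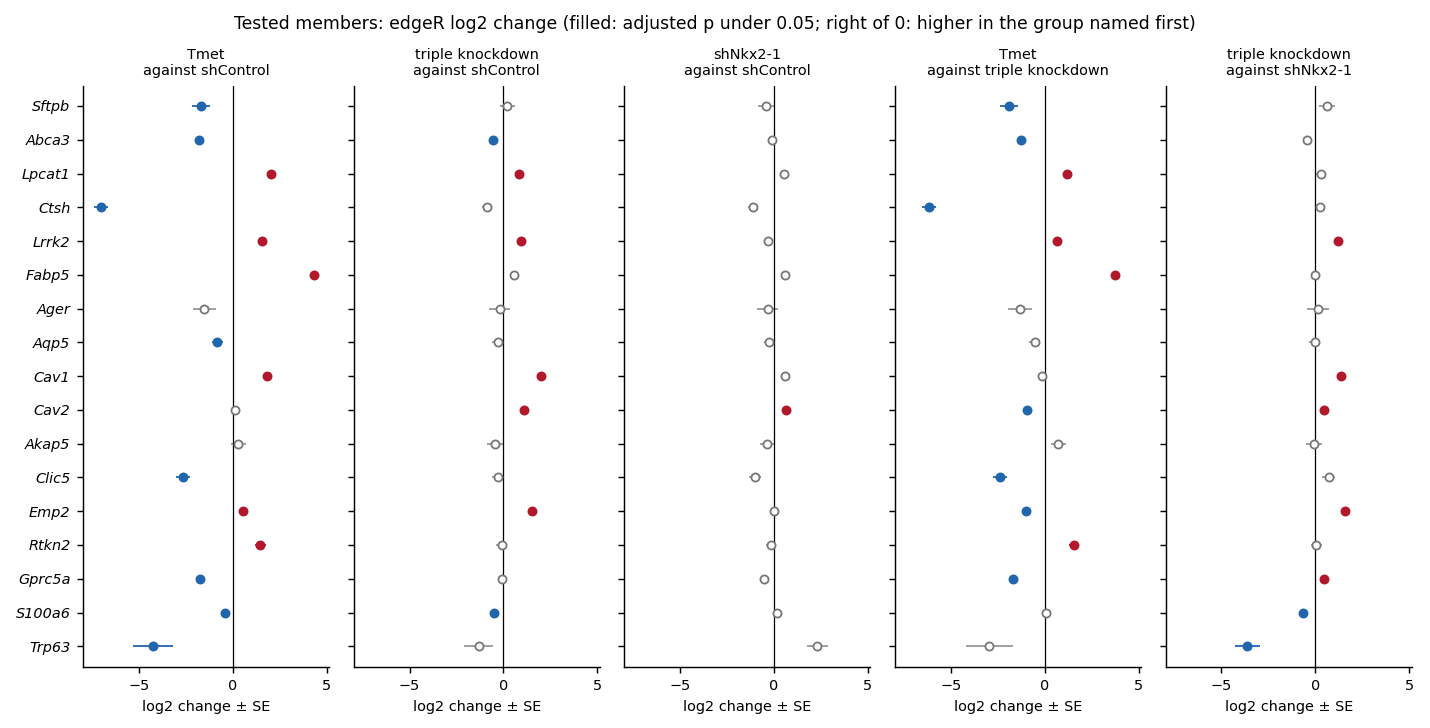
edgeR log2 change with its SE for the 17 tested genes in each of the 5 comparisons, filled where the adjusted p is under 0.05, and right of 0 where the level is higher in the group named first. Ctsh at -7.00 and Fabp5 at 4.31 stand out in Tmet against shControl, and Cav1, Emp2 and Cav2 lie right of 0 in both triple knockdown panels.

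Further genes of the same lineages, from lists of textbook markers, are given for context. Of all genes tested against shControl, 29.2% were higher and 28.1% lower in Tmet, and 12.0% and 12.4% in the triple knockdown. In shNkx2-1 the shares were 2.17% higher and 1.38% lower. Of 14 further type 2 genes 7 were tested. In Tmet against shControl, 1 rose (Etv5) and 6 fell, among them the tight-junction protein Cldn18 with 0.597 CPM in Tmet and 146 CPM in shControl (log2 -7.90 ± 0.21, adjusted p = 1.93e-07) and the alarmin Il33 with 1.11 CPM in Tmet and 60.5 CPM in shControl (-5.76 ± 0.53, adjusted p = 6.45e-05). In the triple knockdown against shControl 1 rose (Muc1) and 2 fell, Il33 with 10.4 CPM in the triple knockdown and 60.5 CPM in shControl (-2.54 ± 0.42, adjusted p = 0.00435) and the chemokine Cxcl15. In shNkx2-1 against shControl Cxcl15 alone passed, with means of 0.171 CPM in shNkx2-1 and 2.19 CPM in shControl (adjusted p = 0.0392). Some of these genes passed the filter only through groups where they are high. Of the 7 called in Tmet, 3 had counts past it in Tmet and shControl alike, 1 higher and 2 lower, and Cldn18 and Cxcl15 did not. Cxcl15 also lacked counts past the filter in the triple knockdown and in shNkx2-1.

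Of 11 further type 1 genes 9 were tested, each against shControl. In Tmet 4 were higher and 3 lower (2 and 3 of them past the filter in both groups), where 29.2% of all genes tested were higher and 28.1% lower. In the triple knockdown 4 were higher and 2 lower, where 12.0% of all genes tested were higher and 12.4% lower. In shNkx2-1 the smallest adjusted p was 0.0640, of the annexin Anxa1. Over the further type 2 genes tested, median log2 changes against shControl were -5.20 in Tmet, -0.08 in the triple knockdown and -0.23 in shNkx2-1. For the further type 1 genes they were -0.56 in Tmet, 0.56 in the triple knockdown and 0.23 in shNkx2-1. Over all genes tested they were 0.02 in Tmet, 0.0036 in the triple knockdown and 0.0044 in shNkx2-1. Only 3 of the 7 further type 2 genes had counts past the filter in Tmet and shControl alike. The -5.20 is therefore no measure of that list. The simple keratin Krt7 moved in opposite directions in Tmet and the triple knockdown, with mean levels of 1.13 CPM in Tmet, 1138 CPM in the triple knockdown, 147 CPM in shNkx2-1 and 116 CPM in shControl. Krt7 fell in Tmet (log2 -6.68 ± 0.20, adjusted p = 3.33e-07) and rose in the triple knockdown (3.29 ± 0.15, adjusted p = 1.59e-05).

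Among further airway genes, 3 of 7 club genes were tested, of which 2 were lower in Tmet and 1 in the triple knockdown, against shControl. The club cell reductase Cbr2 had 0 counts in both Tmet libraries, and a mean of 4.44 CPM in shControl (adjusted p = 0.00182). Of the 10 ciliated genes, 9 were listed and 3 tested, and the axonemal genes Ccdc39 and Rsph1 were higher in Tmet, Ccdc39 with a mean of 2.44 CPM in Tmet and 0.610 CPM in shControl (adjusted p = 0.0184) and Rsph1 with 1.08 CPM in Tmet and 0.277 CPM in shControl (adjusted p = 0.0315). Ccdc40, also tested, was not called in Tmet, with a mean of 0.748 CPM there and 0.777 CPM in shControl. The other 6 listed ciliated genes were silent in all 8 libraries, 4 of them with 0 counts throughout. Of 5 basal genes 2 were tested, and Krt14 and Aqp3 were called higher in Tmet and in the triple knockdown, where Krt14 averaged 2.43 CPM in Tmet, 4.84 CPM in the triple knockdown and 0.0667 CPM in shControl. Krt5 was silent. Of 6 goblet genes 4 were tested, and Agr2, Muc5b and Tff3 were called lower in both Tmet and the triple knockdown, while Agr2 and Muc5b were also lower in shNkx2-1. The 4th, Foxa3, had 0 counts in both Tmet libraries, 10 in each triple knockdown library, and 1 and 3 in shControl. Its call in Tmet thus sets groups against each other that are both at or under 3 counts. The mucin Muc5b averaged 0.162 CPM in Tmet, 0.811 CPM in the triple knockdown, 1.24 CPM in shNkx2-1 and 7.32 CPM in shControl, lower than shControl in Tmet (adjusted p = 0.000227), the triple knockdown (0.00411) and shNkx2-1 (0.0357). Of 6 neuroendocrine genes 2 were tested, and Uchl1 (adjusted p = 0.000290) and Syp (0.0297) were called higher in Tmet. Of all these airway and neuroendocrine calls in Tmet, only those of Ccdc39 and Syp had counts past the filter in Tmet and shControl alike. Of those in the triple knockdown and in shNkx2-1, only that of Muc5b did so in both groups compared.

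Of 14 transcription factors of the lung lineage 13 were tested, all but Foxp2. Against shControl, 9 were lower and 2 higher in Tmet, where 28.1% of all genes tested were lower and 29.2% higher. In the triple knockdown 5 were lower, the targeted Nkx2-1 and Foxa2 among them, where 12.4% of all genes were lower. In shNkx2-1 Nkx2-1 was lower. Median log2 changes were -1.39 in Tmet, -0.25 in the triple knockdown and 0.03 in shNkx2-1. Of the 11 called in Tmet, 6 had counts past the filter in both groups, 1 higher and 5 lower. Gata6, Nkx2-1 and Sox2 are not among these 6: Gata6 and Nkx2-1 lacked such counts in Tmet, and Sox2 in shControl. The smallest p in Tmet was that of Gata6, a factor of the distal lung, with 0.212 CPM in Tmet and 57.4 CPM in shControl (log2 -8.05 ± 0.21, adjusted p = 2.01e-07). Sox2, the factor of the proximal airway, had 109 and 121 CPM in Tmet and at most 0.425 CPM in any other library. In the triple knockdown Foxa1, which no shRNA of the labels names, fell with 32.5 CPM there and 99.5 CPM in shControl (-1.61 ± 0.13, adjusted p = 0.000163), and Cebpa fell with 0.811 CPM there and 9.74 CPM in shControl (-3.58 ± 0.38, adjusted p = 0.000558). Of 13 genes of the transitional state between type 2 and type 1 cells, 6 were higher in the triple knockdown against shControl. Of these 6, 5 had counts past the filter in both groups, and 12.0% of all genes tested were higher. Among the 6 was the cell cycle inhibitor Cdkn1a (1.56 ± 0.15, adjusted p = 0.000417). In Tmet 2 were higher and 5 lower, where 29.2% of all genes tested were higher and 28.1% lower. Of these calls in Tmet, 4 had counts past the filter in both groups, 2 higher and 2 lower. In shNkx2-1 Tnip3 was lower.

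**Figure D4:**
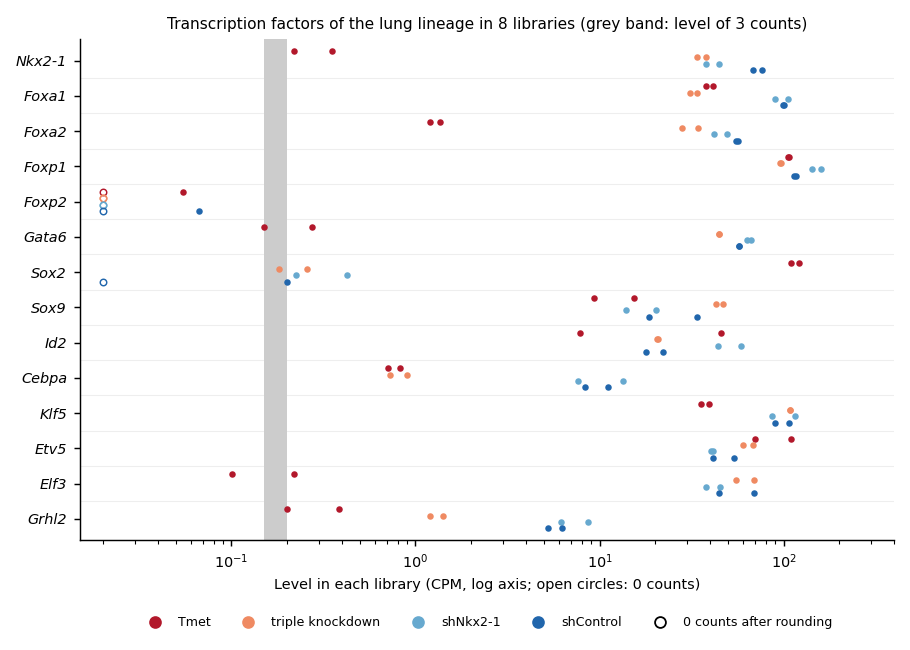
Level of the 14 lung lineage transcription factors in each of the 8 libraries, in CPM on a log axis, with 1 point per library, open circles for 0 counts after rounding and a grey band at the level of 3 counts. Nkx2-1, Gata6 and Elf3 are near the band in Tmet, and Sox2 is over 100 CPM in Tmet alone.

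Marker genes of other cell types moved with the groups too. The 7 epithelial markers summed to 1437 to 2624 CPM in Tmet, 9208 to 10216 in the triple knockdown, 6810 to 7320 in shNkx2-1 and 7949 to 8220 in shControl. Krt8 and Krt18 carried most of that sum. Cdh1, the epithelial cadherin, averaged 3.25 CPM in Tmet, 718 CPM in the triple knockdown, 834 CPM in shNkx2-1 and 975 CPM in shControl, and was lower in Tmet than in shControl (log2 -8.23 ± 0.18, adjusted p = 1.11e-07). Krt19 averaged 147 CPM in Tmet and 1855 CPM in shControl (-3.66 ± 0.20, adjusted p = 3.79e-06). Cldn7 and Esrp1 were silent in all 8 libraries and Epcam did not exceed 0.676 CPM. The 7 fibroblast markers summed to 247 to 805 CPM in Tmet, 19.6 to 20.2 in the triple knockdown, 6.65 to 8.45 in shNkx2-1 and 4.67 to 5.06 in shControl, with Lum at 0 throughout and Thy1 silent. Col1a1, with 72.3 and 346 CPM, and Col1a2, with 164 and 453 CPM, made up most of the sums in Tmet. The 10 macrophage and leukocyte markers summed to 37.5 to 46.0 CPM in Tmet, 231 to 275 in the triple knockdown, 70.3 to 91.9 in shNkx2-1 and 68.3 to 77.9 in shControl, with Emr1 and Tyrobp at 0. Mrc1 and Cd14 made up most of these sums, and Mrc1 averaged 8.22 CPM in Tmet, 189 CPM in the triple knockdown and 42.5 CPM in shControl. In Tmet against shControl Mrc1 was lower (adjusted p = 0.000123) and Cd68 higher, with 3.03 CPM in Tmet and 1.44 CPM in shControl (adjusted p = 0.0327). Fcer1g had 12 and 8 counts in Tmet and at most 1 in shControl, and Csf1r had 1 and 16 counts in Tmet and 0 in both shControl libraries. The 9 endothelial markers summed to at most 6.23 CPM in any library, with Emcn and Cldn5 at 0. Cav1, Cav2 and S100a6 are also made by fibroblasts and endothelium, and Ctsh and Fabp5 by macrophages, and the part of such cells in their changes was not tested.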

How the data were processed

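The authors deposited 1 table of estimated counts per gene (RSEM expected counts) for 8 libraries of polyadenylated RNA, made with TruSeq and read as single ends of 45 nt, per the labels' protocols. Tools were RSEM 1.2.12 and Bowtie 1.0.1 with build mm9, per the submitters' processing notes, which state no roles. Annotation, read filters and strand were not given in the sources used here, so overlapping genes and near-identical copies are uncertain. Between 34.7% and 38.0% of a library's values were not whole.

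Estimated counts were rounded. CPM used TMM factors (0.943 to 1.035). In R 4.3.3, edgeR 4.0.16's filterByExpr (minimum count 10, minimum total 15) left 13318 genes tested and 9906 not. All 8 libraries entered 1 quasi-likelihood fit of 4 groups without covariates (4 residual degrees of freedom, biological coefficient of variation 15.6%). Tests were two-sided, adjusted by Benjamini-Hochberg over the genes of a comparison, with a threshold of 0.05, and errors of log2 changes are SE. The script was tested on simulated data. Alternatives were DESeq2 1.42.0 and its size factors, limma-voom (limma 3.58.1), other filters, subsets of libraries, a replicate block and leaving out each library. Intervals and floors of 3 counts cover counting error only.

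The 36 genes and the marker lists were chosen with earlier results of these data known. All members are accounted for, those past the threshold or kept in every group are described in each library, and of each list the 2 genes with the smallest p against shControl could be named. Etv5, Muc1, Tff3, Foxa3, Foxp2, Elf3, Sox2, Krt5, Abca17, Matn4 and single markers lie outside this rule and were named after their values were seen. Lengths for levels per kilobase are merged exons of another build and approximate.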

Additional observations from a re-analysis of the deposited data

How the results depend on the processing

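The number of silent genes was 15 with a limit of 3 counts, 19 with a limit of 10, and 15 to 16 with a library left out; 13 genes were kept at 1 CPM, 15 at 0.5 CPM, 11 at 2 CPM, and 12 to 13 with a library left out. In shNkx2-1 against shControl the 1 member called became 4 with DESeq2, 3 with limma-voom, 4 with no filter, 2 with a filter at 20 counts, 5 in the fit of the compared libraries alone, 5 without both Tmet libraries and 0 with the replicate block, and 0 to 6 with a library left out. That comparison called 473 genes in all, against 908 with DESeq2, 1779 in the compared libraries alone and 2006 without Tmet. Leaving out a library gave 3 to 9 members for the triple knockdown against shControl and 4 to 8 against shNkx2-1, in place of 7 each.

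The groups share replicate numbers, of which there are only 2. Deviations of same-numbered libraries correlated from 0.271 to 0.374 between Tnonmet groups and from -0.276 to -0.062 with Tmet, and no label says what a number marks, so the numbers were not taken as pairs. With the replicate block 14 members passed in Tmet against shControl, among 7351 genes in all, and 12 in Tmet against the triple knockdown, among 6062. In the triple knockdown 6 members passed against shControl, among 2951 genes, and 7 against shNkx2-1, among 2389. The block lost Aqp5 and gained Ager in Tmet against shControl, gained Trp63 in Tmet against the triple knockdown, lost Lpcat1 in the triple knockdown against shControl, and lost Cav2 in shNkx2-1 against shControl.

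Called members kept their direction in all repeats, 549 past the threshold and 64 not, and Sftpb was not tested with the filter at 20 counts. Only uncalled changes turned sign. In the triple knockdown against shNkx2-1 Ager gave -0.032 with limma-voom and -1.95e-05 with the replicate block. With a library left out, log2 ranges were, for Ager, -0.75 to 0.30 in shNkx2-1 and -1.08 to 0.42 in the triple knockdown against shControl, and -0.75 to 0.68 in the triple knockdown against shNkx2-1. Akap5 ranged over -0.69 to 0.044 in shNkx2-1 and -0.060 to 0.68 in Tmet against shControl, and -0.41 to 0.23 in the triple knockdown against shNkx2-1. Against shControl, the ranges in shNkx2-1 were -0.11 to 0.062 for Emp2 and -0.34 to 0.052 for Rtkn2, and in the triple knockdown -0.62 to 0.10 for Clic5 and -0.45 to 0.18 for Rtkn2. In the triple knockdown against shNkx2-1 they were -0.23 to 0.13 for Aqp5, -0.084 to 0.74 for Ctsh, -0.13 to 0.057 for Fabp5 and -0.29 to 0.34 for Rtkn2, and S100a6 ranged over -0.0062 to 0.096 in Tmet against the triple knockdown. The causes were not tested. With 2 libraries a group, a library left out leaves 1, which is assumed to vary like the rest. Levels under 0.200 CPM rest on 3 counts or fewer, and at this depth a silent gene cannot be told from one at a lower level.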
